A study of Mus musculus with 23 samples.

Results

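The translation initiation factors of the Eif family were examined in the hippocampal CA3 region of mice that express UBB+1, a frame-shifted form of ubiquitin B that inhibits the proteasome. Members were all probe sets whose array annotation names 1 gene only and whose gene symbol is Eif followed by a digit, so the kinases of eIF2 (Eif2ak) and the eIF4E-binding proteins (Eif4ebp) are included. There were 134 such probe sets of 47 genes among 45136 probe sets tested. The MOE430A array held 103 of them for 42 genes among 22625, and the MOE430B array held 31 for 20 genes among 22511, with 15 genes on both. One probe set of Eif5, 1415723_at, lies on both arrays. The reference annotation lists 56 protein-coding Eif genes, and the remaining 9, which include Eif1, Eif2s1 and Eif4g1, were not analysed here.

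The UBB+1 tg mice were heterozygous, carried human UBB+1 under the CaMKIIα promoter, which drives it in neurons after birth, and were of 1 line on a C57BL/6J background. Wild-type mice were littermates without the transgene. All were 18 months old, and their sex is not given in the sources used here. CA3 was cut with a laser from stained frozen sections and its RNA was amplified in 2 rounds, so a sample holds pyramidal neurons together with the glia and fibres around them. MOE430A was run with 6 UBB+1 tg and 5 wild-type mice, and MOE430B with the same mice and 1 further wild-type mouse, so the arrays are not independent samples of animals. Mice are named here by genotype and number as in the labels, for example tg271 and wt287. In such tissue, fewer cells of a type and less RNA per cell cannot be told apart.

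Translation of most mRNAs begins when eIF2 brings the initiator tRNA to the small ribosomal subunit, with eIF1, eIF1A, eIF3 and eIF5, while eIF4E binds the cap of the mRNA and joins it through the scaffold eIF4G to the helicase eIF4A. Cells slow this step at a pair of control points. Stress kinases phosphorylate eIF2α, which blocks the exchange factor eIF2B, and hypophosphorylated 4E-BPs hold eIF4E away from eIF4G. In neurons both are known for their part in synaptic plasticity and in the response to misfolded proteins, and a change of either is first of all one of protein phosphorylation, which RNA arrays do not measure.

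The arrays were cut into 3 sets by their overall profile, with the number of sets chosen and not found. The sets also differed in the 3'–5' difference. This is the log2 intensity of the controls for the 3' ends of the Gapdh and β-actin mRNAs less that for their 5' ends. On MOE430A this difference was 2.65 to 3.43 in the low set (tg271, wt287 and wt290), 4.44 to 4.62 in the middle set of 6 mice and 6.05 to 6.10 in the high set (tg270 and wt289). On MOE430B it was 2.41 to 3.73 in the low set of 3 arrays, 4.47 to 4.97 in the middle set of 7 and 6.22 to 6.39 in the high set of 2. All 3 sets held both genotypes, and values within them are given beside the results. The CA3 markers Bok, Iyd, Plagl1 and Spock1 on MOE430A, and Cpne4, Grik4 and Plagl1 on MOE430B, lay above their array's median. So did 1 of 2 CA1, 2 of 2 CA2 and 1 of 4 dentate markers on MOE430A. On MOE430B 0 of 1, 1 of 1 and 1 of 3 did, so this bar does not tell CA3 from its neighbours. Of the choroid plexus markers, 1 of 3 on MOE430A and 1 of 1 on MOE430B lay above it. The latter, Ttr, varied widely between mice, with a log2 difference between genotypes of −1.44 and a standard error of 0.95. Whether other tissue was cut along with CA3 was not tested. Markers of astrocytes, oligodendrocytes, microglia and interneurons were also present. The 1 marker with an unadjusted p under 0.05 between genotypes was the CA2 marker Cacng5 on MOE430A, where 3.48% of all probe sets had such a p. Its log2 difference was 0.71 with a standard error of 0.21. The other CA2 markers differed by 0.27 with a standard error of 0.28 (Rgs14, MOE430A) and by −0.07 with a standard error of 0.10 (Amigo2, MOE430B).

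No Eif probe set passed the false discovery rate of 10% on either array, where 0% of all probe sets on MOE430A and 0% on MOE430B did. Adjusted p-values (limma, Benjamini-Hochberg over each array) were 0.984 to 0.999 for the 103 members on MOE430A and 1 for the 31 on MOE430B. At an unadjusted p under 0.05 there were 3 of 103 members on MOE430A, against 3.48% of all its probe sets, of which 1 was higher in UBB+1 tg, against 1.91%, and 2 were lower, against 1.57%. On MOE430B there were 2 of 31 members, against 3.05% of all, of which 1 was higher, against 1.52%, and 1 lower, against 1.53%. These counts lay near the background. The 5 probe sets were picked for their low p, so the permutation tests given for them below use the same values and are not independent of that choice. The values of the genotypes overlapped for every member on MOE430A, where they did not overlap for 0.234% of all probe sets, and for every member on MOE430B, where they did not overlap for 0.142%.

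The differences lay on both sides of 0. On MOE430A 53 of 103 members had a higher mean in UBB+1 tg (51.5%, all probe sets 51.7%) with a median log2 difference of 0.01, and on MOE430B 16 of 31 did (51.6%, all probe sets 47.6%) with a median of 0.02. No member reached a difference of 1.5-fold, which is 0.585 on the log2 scale, where 1.68% of all probe sets on MOE430A and 0.56% on MOE430B did. The median size of the log2 difference, without its sign, was 0.11 for the members and 0.09 for all probe sets on MOE430A, and 0.09 and 0.07 on MOE430B. The range was −0.47 (Eif3k) to 0.51 (Eif4g2) on MOE430A and −0.50 (Eif1ad) to 0.46 (Eif1ax) on MOE430B. The arrays set a limit on what could be seen, since the median standard error of a member's log2 difference was 0.166 on MOE430A and 0.13 on MOE430B. The 95% interval of the difference lay wholly within 1.5-fold for 58 of 103 members on MOE430A and 20 of 31 on MOE430B, and within 2-fold for 95 and 29. For the other members the interval reached beyond these folds. Dim probe sets were included, and 27 members on MOE430A and 10 on MOE430B had a mean below the median probe set of their array.

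**Figure D1:**
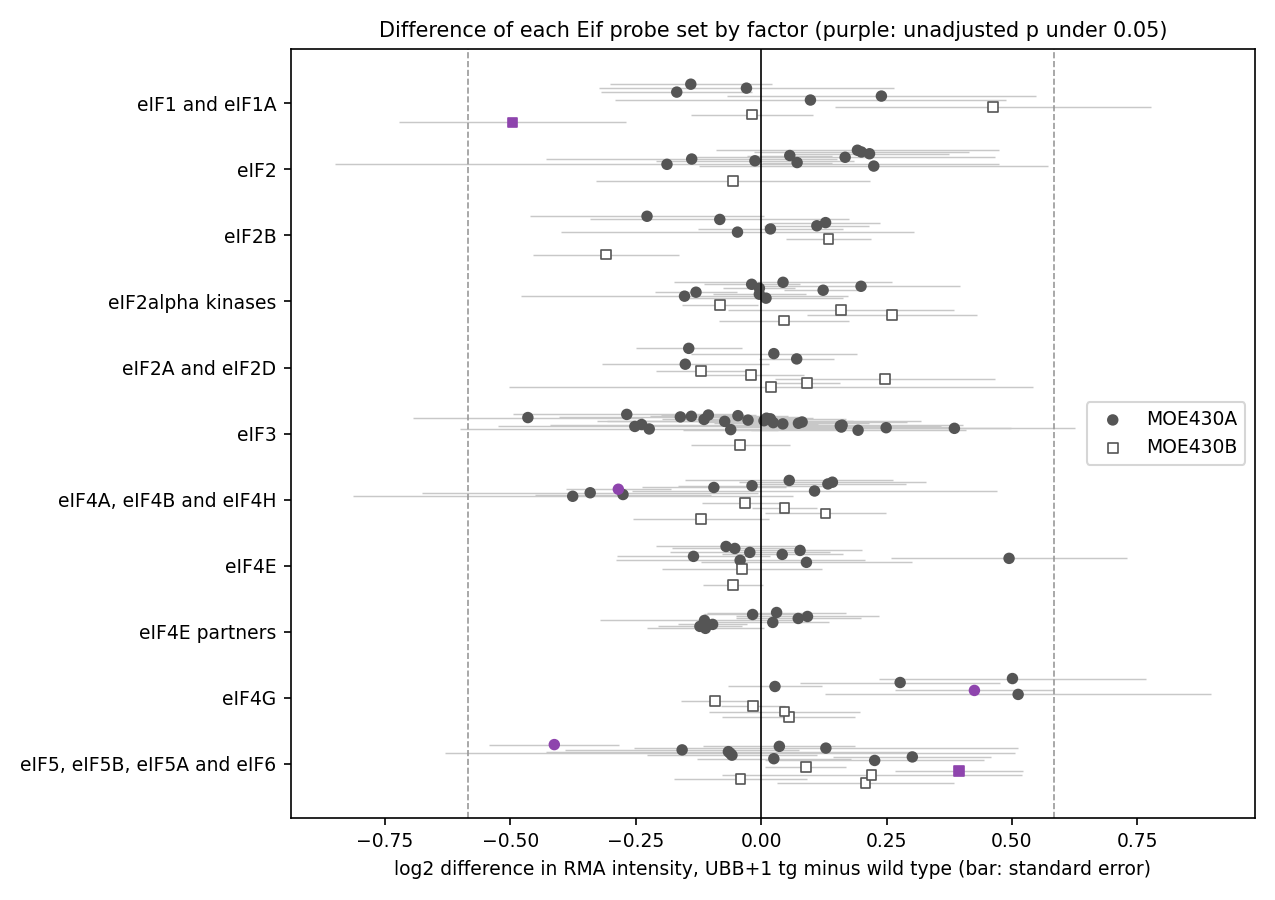
Log2 difference in RMA intensity between UBB+1 tg and wild-type mice (x axis, bars are standard errors) for each of the 134 Eif probe sets, in rows by factor, with MOE430A as circles and MOE430B as squares. The points scatter on both sides of 0 within the dashed lines at 1.5-fold, and the 5 purple points have an unadjusted p under 0.05.

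eIF1 and eIF1A, small proteins that help the ribosome find the start codon, had 5 probe sets on MOE430A, with log2 differences of −0.17 to 0.24. On MOE430B the group held Eif1ad, which encodes an eIF1A domain-containing protein. Eif1ad probe set 1428542_at read 7.52, 7.71 and 8.57 as the lowest, median and highest log2 intensity in the 6 UBB+1 tg mice and 7.79, 8.19 and 9.03 in the 6 wild-type mice. The values overlapped, and the highest UBB+1 tg value, that of tg271, lay above 4 of the 6 wild-type values. The log2 difference was −0.50 with a standard error of 0.23 and an adjusted p of 1 (limma), and an exact two-sided permutation test over the mice gave p = 0.0866. The low set held the highest values of each genotype, and the difference was −0.33 in the low, −0.40 in the middle and −0.27 in the high set. With the set as a block it was −0.36 with a standard error of 0.07, an unadjusted p of 0.000415 and an adjusted p of 0.900 (limma). The other Eif1ad probe set, 1455341_at, differed by −0.02 with a standard error of 0.12. Eif1ax, the X-linked gene of eIF1A, differed by 0.46 with a standard error of 0.32 on MOE430B (1437071_at) and by −0.17 and −0.03 on MOE430A. With the set as a block the MOE430B value was 0.31, with an unadjusted p of 0.0222 (limma).

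eIF2, the carrier of the initiator tRNA, was measured through its β subunit, Eif2s2, and the X- and Y-linked genes of its γ subunit, Eif2s3x and Eif2s3y. Of its 10 probe sets on MOE430A, 7 had a higher mean in UBB+1 tg and 3 a lower one (all probe sets 51.7% higher). At an unadjusted p under 0.05 there were 0 (all probe sets 3.48%), and the median log2 difference was 0.12. Eif2s2 probe set 1417712_at had a lowest, median and highest log2 intensity of 9.0, 10.05 and 10.47 in UBB+1 tg mice, and the 5 wild-type mice read 9.07, 9.12, 9.24, 10.17 and 10.74. The genotypes overlapped over nearly the whole range, and in both the mice of the middle set were the highest. The log2 difference was 0.22 with a standard error of 0.35, and it was −0.26 within the middle set. Eif2s3x probe set 1423744_x_at had a lowest, median and highest value of 8.31, 8.70 and 8.79 in UBB+1 tg and read 7.86, 8.40, 8.46, 8.48 and 8.89 in wild type. It differed by 0.22 with a standard error of 0.16, and without wt289 by 0.34 with an unadjusted p of 0.0391 (limma). Eif2s3y, dim on both arrays, differed at probe set 1417210_at by 0.19 with a standard error of 0.28 on MOE430A, and by −0.01 with the set as a block. Eif2s3y probe set 1431642_at differed by −0.06 with a standard error of 0.27 on MOE430B.

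eIF2B, the exchange factor that reloads eIF2 with GTP, had 6 probe sets on MOE430A with log2 differences of −0.23 (Eif2b5) to 0.13 (Eif2b2), 3 in each direction. On MOE430B, Eif2b3 probe set 1434524_at differed by −0.31 with a standard error of 0.15 and an unadjusted p of 0.0544 (limma), which was −0.26 and 0.0499 with the set as a block, and Eif2b5 probe set 1445908_at by 0.13. Eif2a and Eif2d, which encode other proteins that can deliver tRNA to the ribosome, had 4 probe sets on MOE430A, from −0.15 to 0.07, and 5 on MOE430B, from −0.12 to 0.25.

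The 4 kinases that phosphorylate eIF2α had 9 probe sets on MOE430A and 4 on MOE430B. None of these had an unadjusted p under 0.05, against 3.48% and 3.05% of all probe sets. Eif2ak1, the heme-regulated kinase, read 6.79, 6.91 and 7.97 as the lowest, median and highest log2 intensity in UBB+1 tg at probe set 1421901_at, and 6.52, 6.77, 7.59, 7.73 and 8.13 in wild type. Its log2 difference was −0.15 with a standard error of 0.33. In both genotypes the mice of the middle set lay below all mice of the low and high sets at this probe set. On MOE430B, Eif2ak1 probe set 1436006_at read 7.31, 7.50 and 7.92 as lowest, median and highest value in UBB+1 tg and 6.70, 7.24 and 7.77 in wild type. It differed by 0.26 with a standard error of 0.17, the other way, and all 6 UBB+1 tg mice lay above the wild-type mean. Without wt289 it differed by 0.36 with an unadjusted p of 0.04 (limma). Eif2ak2, the kinase activated by double-stranded RNA (PKR), differed by 0.12 with a standard error of 0.08 at probe set 1422006_at and by −0.13 with a standard error of 0.08 at 1422005_at, so its probe sets pointed in opposite directions. Eif2ak3, the kinase of the endoplasmic reticulum (PERK), read 6.92, 7.05 and 7.31 as lowest, median and highest value in UBB+1 tg at 1449278_at, and 6.04, 6.88, 7.06, 7.09 and 7.36 in wild type. Its difference of 0.20, standard error 0.20, rested on wt287, the wild-type mouse at 6.04, and was −0.01 without it. Eif2ak4, the kinase that senses uncharged tRNA (GCN2), differed by 0.04 with a standard error of 0.22 at 1421389_a_at on MOE430A and by −0.08 with a standard error of 0.08 on MOE430B.

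A list of genes tied to the response to eIF2α phosphorylation was examined beside the kinases. Of 20 such genes, among them Atf4, Ddit3 and Trib3, 36 probe sets were tested on MOE430A and 4 on MOE430B. On either array 0 had an unadjusted p under 0.05 (limma), against 3.48% and 3.05% of all probe sets, a count near that background. The median log2 difference was 0.01 on MOE430A and 0.12 on MOE430B. The lowest unadjusted p of the list was that of a probe set of Cebpb, a transcription factor. It differed by −0.39 with a standard error of 0.18, and by −1.10 in the low, −0.14 in the middle and −0.16 in the high set. The other Cebpb probe set differed by −0.10. Next came a probe set of Vldlr, a lipoprotein receptor, which differed by 0.56 with a standard error of 0.29. The other Vldlr probe sets differed by −0.06 to 0.35 on MOE430A, and by 0.27 and 0.31 on MOE430B.

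eIF3, a large complex that acts at the small ribosomal subunit, had the most probe sets, 26 of 11 genes on MOE430A. They were split evenly, with 13 higher and 13 lower in UBB+1 tg and a median log2 difference of −0.01. None had an unadjusted p under 0.05 (all probe sets 3.48%). The lowest value was that of Eif3k, a small subunit of the complex, at −0.47 with a standard error of 0.23 and an unadjusted p of 0.0664 (limma). With the array set as a block it was −0.26 with a standard error of 0.11, and the unadjusted p was 0.0379 (limma). The highest was that of Eif3a, the largest subunit, at 0.39 with a standard error of 0.24 for probe set 1448425_at, while another of its probe sets, 1416661_at, differed by −0.22 with a standard error of 0.38. The 4 probe sets of Eif3e were closer together, from 0.02 to 0.08. On MOE430B the complex had 1 probe set, of Eif3d, which differed by −0.04.

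The eIF4A helicase and its cofactors eIF4B and eIF4H had 10 probe sets on MOE430A. Eif4b, which encodes the cofactor that stimulates the helicase, read 7.45, 7.73 and 7.91 as the lowest, median and highest log2 intensity in UBB+1 tg at probe set 1426378_at, and 7.68, 8.01, 8.08, 8.11 and 8.12 in wild type. All 6 UBB+1 tg mice lay below the wild-type mean, and the genotypes overlapped through wt321, at 7.68. UBB+1 tg minus wild type, this came to a log2 difference of −0.28 with a standard error of 0.11 and an adjusted p of 0.984 (limma), and the exact two-sided permutation test gave p = 0.026. It was −0.35 in the low, −0.19 in the middle and −0.20 in the high set. The other Eif4b probe sets, 1426379_at and 1426380_at, differed by −0.09 and −0.02, with standard errors of 0.14 and 0.15. All 3 probe sets of Eif4a1, the helicase gene, had a lower mean in UBB+1 tg, with log2 differences of −0.28 to −0.38 with standard errors of 0.18 to 0.44, and none had an unadjusted p under 0.05. With the set as a block they were −0.23 (1427058_at), −0.16 (1430980_a_at) and −0.03 (1434985_a_at), and within the middle set 0.22, 0.07 and 0.01. Eif4a2, the helicase gene prominent in brain, differed by 0.11 with a standard error of 0.36. The 3 probe sets of Eif4h on MOE430A differed by 0.06 to 0.14. On MOE430B the group had 4 probe sets, from −0.12 to 0.13.

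The cap-binding proteins of the eIF4E group had 9 probe sets on MOE430A and 2 on MOE430B. Eif4e, the cap-binding protein itself, read 9.28, 9.58 and 10.38 as the lowest, median and highest log2 intensity in UBB+1 tg at its brightest probe set, 1423220_at, and 9.37, 9.48, 9.69, 9.74 and 9.98 in wild type. The wild-type mice lay within the range of the UBB+1 tg mice, and the log2 difference was 0.09 with a standard error of 0.21. A further Eif4e probe set, 1450909_at, differed by 0.49 with a standard error of 0.24 and an unadjusted p of 0.0586 (limma). It read 7.29, 7.67 and 8.66 as lowest, median and highest value in UBB+1 tg and 7.04, 7.19, 7.32, 7.38 and 7.60 in wild type, and its difference was 0.04 in the low, 0.50 in the middle and 1.06 in the high set. With the set as a block it was 0.49 with an unadjusted p of 0.0226 (limma). The 2 remaining Eif4e probe sets differed by −0.04 on MOE430A and −0.06 on MOE430B. Of the relatives of eIF4E, the probe sets of Eif4e2 and Eif4e3 on MOE430A had differences of −0.13 to 0.08.

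The proteins that hold or carry eIF4E had 9 probe sets on MOE430A, of which 0 had an unadjusted p under 0.05 (limma, all probe sets 3.48%). All 3 probe sets of Eif4ebp1 had lower means in UBB+1 tg, with log2 differences of −0.10 to −0.12 and standard errors of 0.07 to 0.12. At probe set 1417562_at, Eif4ebp1 read 5.83, 5.92 and 6.34 as lowest, median and highest value in UBB+1 tg and 5.86, 5.88, 6.21, 6.25 and 6.25 in wild type. The 5 probe sets of Eif4ebp2, the 4E-BP prominent in brain, pointed both ways, from −0.11 to 0.09. Its brightest, 1417084_at, differed by 0.02 with a standard error of 0.11. Eif4enif1, which encodes the carrier of eIF4E into the nucleus, differed by 0.03.

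In the scaffold group eIF4G, 5 of 5 probe sets on MOE430A had a higher mean in UBB+1 tg (all probe sets 51.7%). Their median log2 difference was 0.43 and their range 0.03 to 0.51, with no adjusted p below 0.984 (limma). These 5 probe sets come from 2 genes and the same mice. On MOE430B the group had 2 probe sets with a higher mean and 2 with a lower one (all probe sets 47.6% higher), with a median of 0.015. Eif4g2, which encodes a scaffold that lacks the eIF4E-binding part and serves cap-independent initiation, read 10.004, 10.34 and 10.45 as lowest, median and highest log2 intensity in UBB+1 tg at 1428362_at, and 9.36, 9.63, 9.96, 10.11 and 10.26 in wild type. All 6 UBB+1 tg mice lay above the wild-type mean, and 2 wild-type values lay within their range. The log2 difference was 0.43 with a standard error of 0.16 and an adjusted p of 0.984 (limma), and the exact two-sided permutation test gave p = 0.0303. It was 0.51 in the low, 0.32 in the middle and 0.03 in the high set.

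Of the remaining Eif4g2 probe sets on MOE430A, 2 differed by 0.51 with a standard error of 0.38 (1415863_at) and by 0.03 with a standard error of 0.09 (1428363_at), the last of which was dim. The brightest, 1452758_s_at, read 11.31, 11.70 and 12.06 as lowest, median and highest value in UBB+1 tg and 11.06, 11.08, 11.44, 11.55 and 12.00 in wild type. It differed by 0.28 with a standard error of 0.20, and 4 of 6 UBB+1 tg mice lay above the wild-type mean. Eif4g3, a close relative of eIF4G1 that binds eIF4E, had a lowest, median and highest log2 intensity of 9.15, 9.55 and 9.83 in UBB+1 tg at 1426833_at, and read 8.16, 8.46, 9.35, 9.49 and 9.60 in wild type. The log2 difference was 0.50 with a standard error of 0.27 and an unadjusted p of 0.0867 (limma). The wild-type mice of the low set, wt287 and wt290, gave the 2 lowest values at Eif4g3 1426833_at and at Eif4g2 1428362_at, 1415863_at and 1452758_s_at. For Eif4g3 the difference was 0.84 within the low set, 0.11 within the middle and 0.09 within the high set. On MOE430B, the 1 probe set of Eif4g2 differed by 0.05 with a standard error of 0.13, and the 3 of Eif4g3 by −0.09 to 0.05. The Eif4g3 probe sets 1430578_at and 1440571_at lay below that array's median, with means of 5.27 and 5.22.

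**Figure D2:**
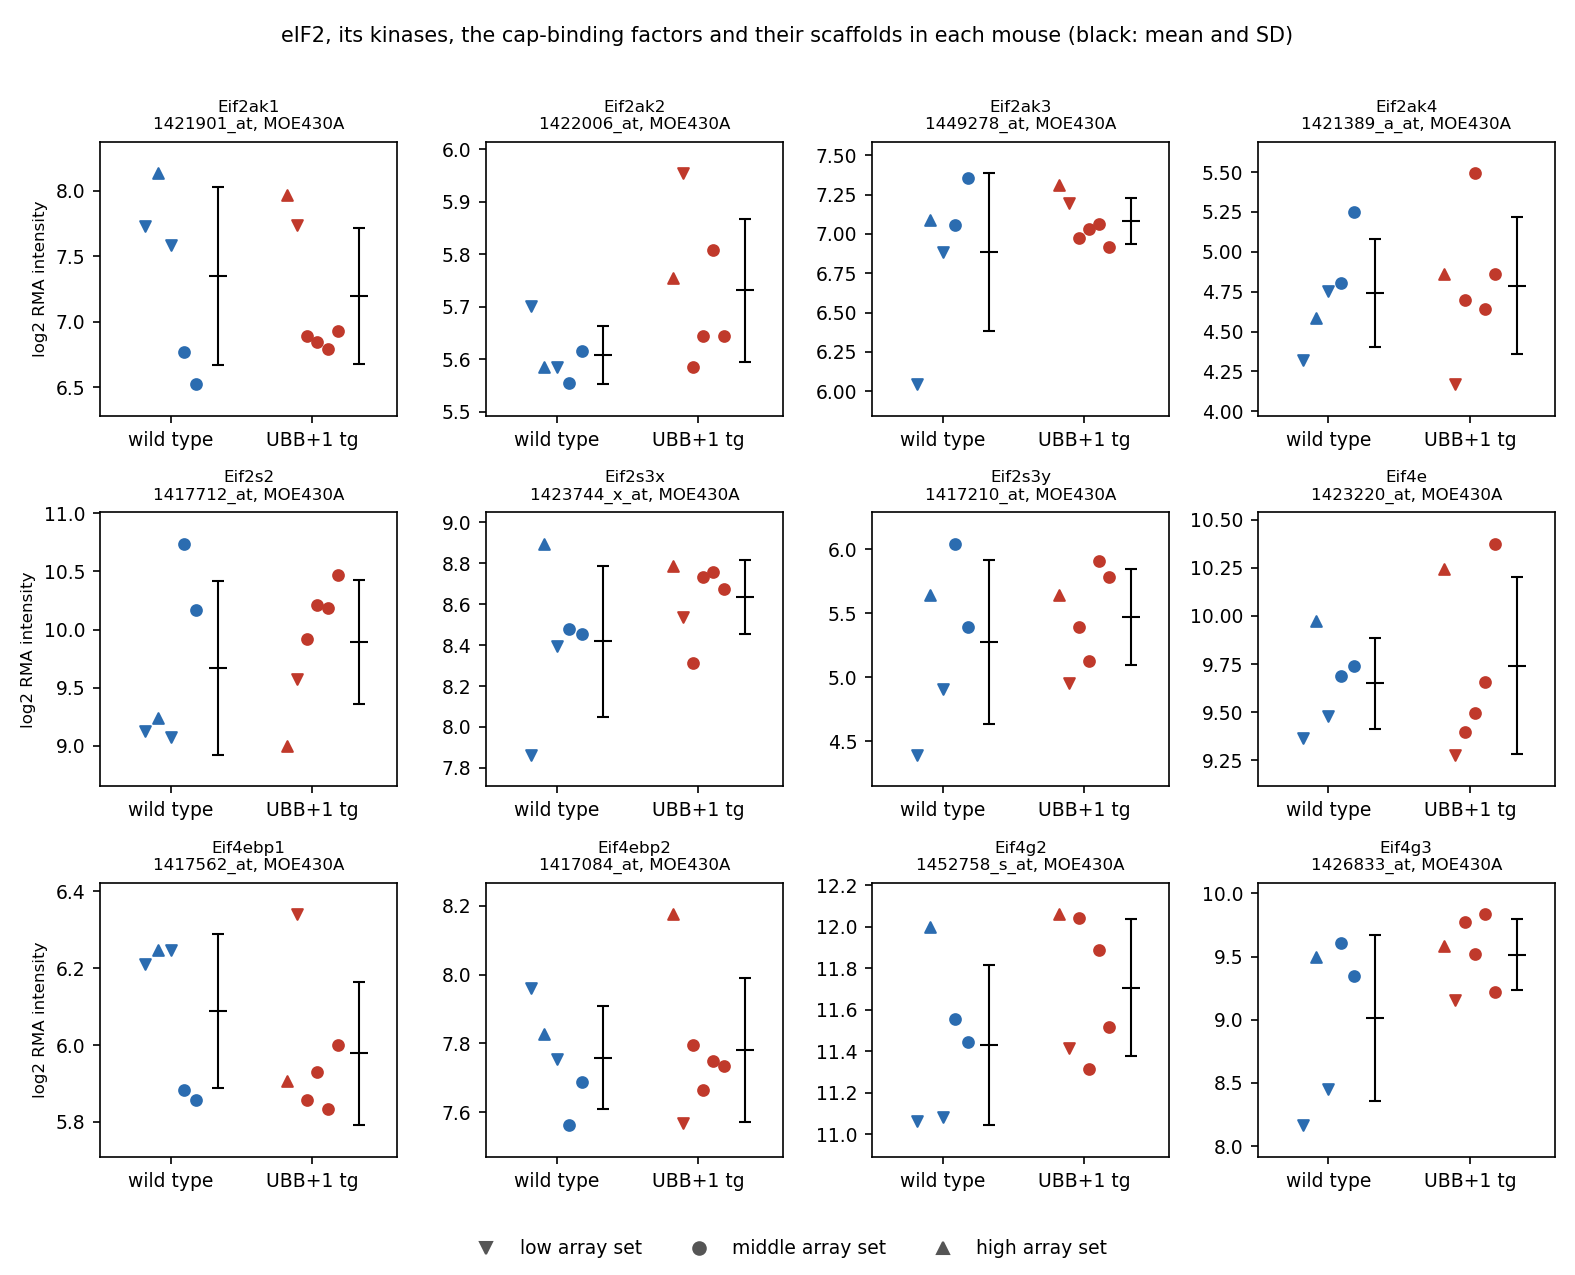
Log2 RMA intensity on MOE430A (y axis) in each wild-type and UBB+1 tg mouse (points, shaped by array set) at the brightest probe set of each gene of eIF2, its kinases, eIF4E, its binding proteins and eIF4G, with black bars for the mean and SD. The genotypes overlap in all 12 panels, and at Eif4g2 and Eif4g3 the lowest wild-type points are those of the low array set.

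The last group holds eIF5, eIF5B, eIF5A and eIF6. Eif6, which encodes the factor that keeps the large subunit apart from the small one, read 9.34, 9.56 and 9.81 as lowest, median and highest log2 intensity in UBB+1 tg at 1427578_a_at on MOE430A, and 9.72, 9.72, 9.99, 10.16 and 10.30 in wild type. All 6 UBB+1 tg mice lay below the wild-type mean, and the ranges overlapped between 9.72 and 9.81. Between the genotypes the log2 difference was −0.41 with a standard error of 0.13 and an adjusted p of 0.984 (limma), and the exact two-sided permutation test gave p = 0.026. It was −0.57 in the low, −0.34 in the middle and −0.32 in the high set. The other probe set of Eif6, 1431582_at on MOE430B, differed by 0.09 with a standard error of 0.08, in the opposite direction.

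Eif5a2, a relative of the hypusine-carrying factor eIF5A that helps the ribosome through difficult peptide bonds, read 6.44, 6.74 and 6.997 as lowest, median and highest log2 intensity in UBB+1 tg at 1438256_at on MOE430B and 5.94, 6.36 and 6.69 in the 6 wild-type mice. All 6 UBB+1 tg mice lay above the wild-type mean. In log2 units the difference was 0.40 with a standard error of 0.13 and an adjusted p of 1 (limma), and the exact two-sided permutation test gave p = 0.0152. It was 0.58 in the low, 0.36 in the middle and 0.08 in the high set, and the other probe set of Eif5a2, 1434593_at, differed by 0.22 with a standard error of 0.30. The 2 probe sets of Eif5a differed by −0.06 and −0.07, with standard errors of 0.57 and 0.36.

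Eif5 encodes the factor that makes eIF2 hydrolyse its GTP. Its probe set on both arrays, 1415723_at, differed by 0.23 with a standard error of 0.22 on MOE430A and by 0.21 with a standard error of 0.18 on MOE430B, in largely the same RNA. Its other probe sets on MOE430A lay between −0.06 and 0.30, the highest of them 1454663_at with a standard error of 0.16. Eif5b, which encodes the factor that joins the subunits, differed by −0.16 to 0.13 over 3 probe sets.

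**Figure D3:**
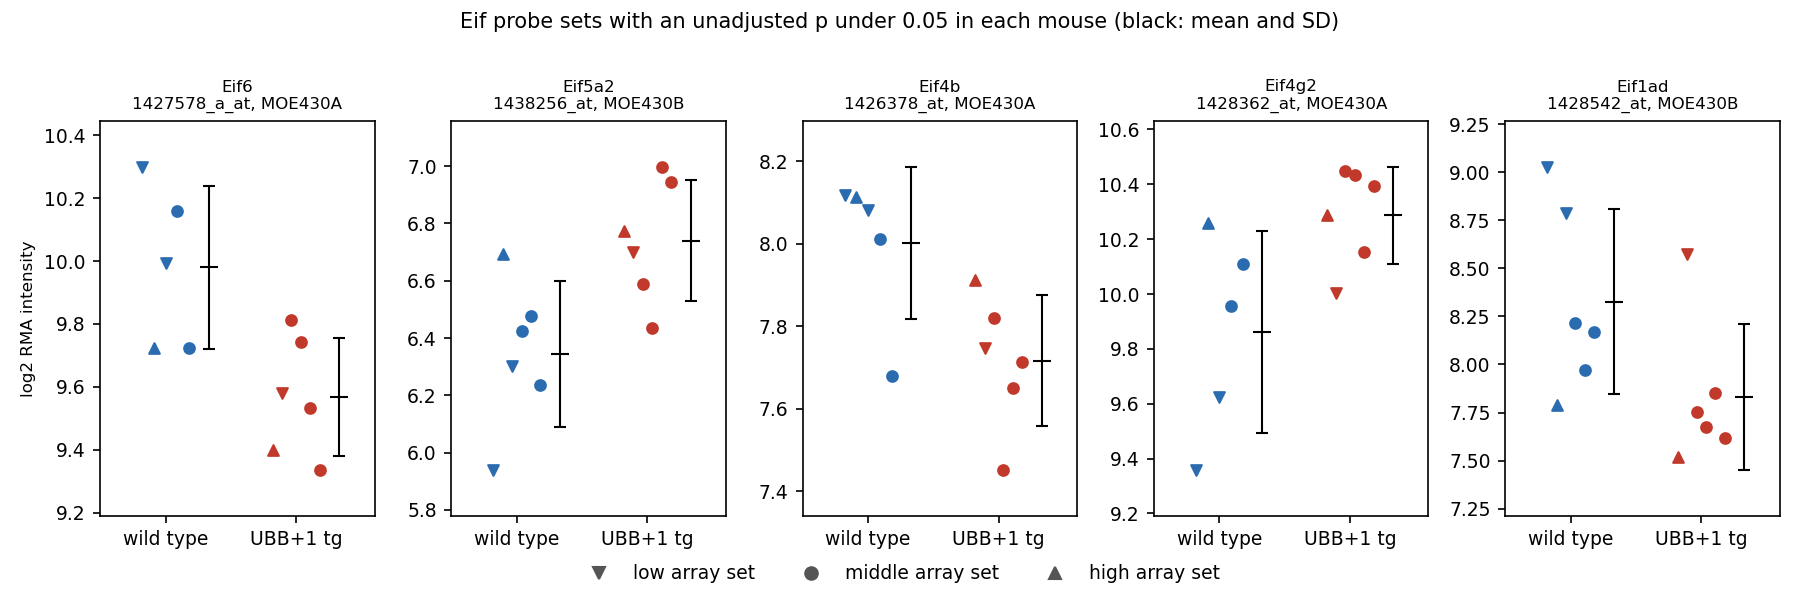
Log2 RMA intensity (y axis) in each wild-type and UBB+1 tg mouse (points, shaped by array set) at the 5 Eif probe sets with an unadjusted p under 0.05, with black bars for the mean and SD. The genotypes overlap in every panel, and the largest of the mean differences, that of Eif1ad at −0.50, has the widest spread.

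Probe sets of one gene often disagreed. A gene was covered by several probe sets on 1 array in 36 cases, and in 16 of them the log2 differences took both signs. Examples are Eif3a, from −0.22 to 0.39, Eif4e on MOE430A, from −0.04 to 0.49, and Eif2s2, from −0.19 to 0.22.

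The members varied with the array set, as most probe sets did. The range of the 3 set means was larger than the size of the genotype difference for 96 of 103 members on MOE430A (93.2%, all probe sets 91.1%) and for 29 of 31 on MOE430B (93.5%, all probe sets 90.0%), and a range over 3 means tends to be larger than a difference of 2. It was above 1 on the log2 scale for 18 of 103 members on MOE430A (17.5%, all probe sets 10.3%) and for 4 of 31 on MOE430B (12.9%, all probe sets 3.86%). The sets were found in these values, so the shares are a description and carry no test. The widest range was that of Eif5a probe set 1437859_x_at, with means of 10.30, 9.89 and 7.66 in the low, middle and high sets. Eif4a1 probe set 1427058_at had means of 8.19, 7.33 and 6.16 and Eif4g2 probe set 1415863_at had 7.65, 9.10 and 8.96. For Eif2s2 the probe sets went opposite ways, since 1417713_at had means of 9.71, 7.72 and 9.92 and 1417712_at had means of 9.26, 10.28 and 9.12. Whether the part of the transcript that a probe set reads accounts for such patterns was not tested.

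**Figure D4:**
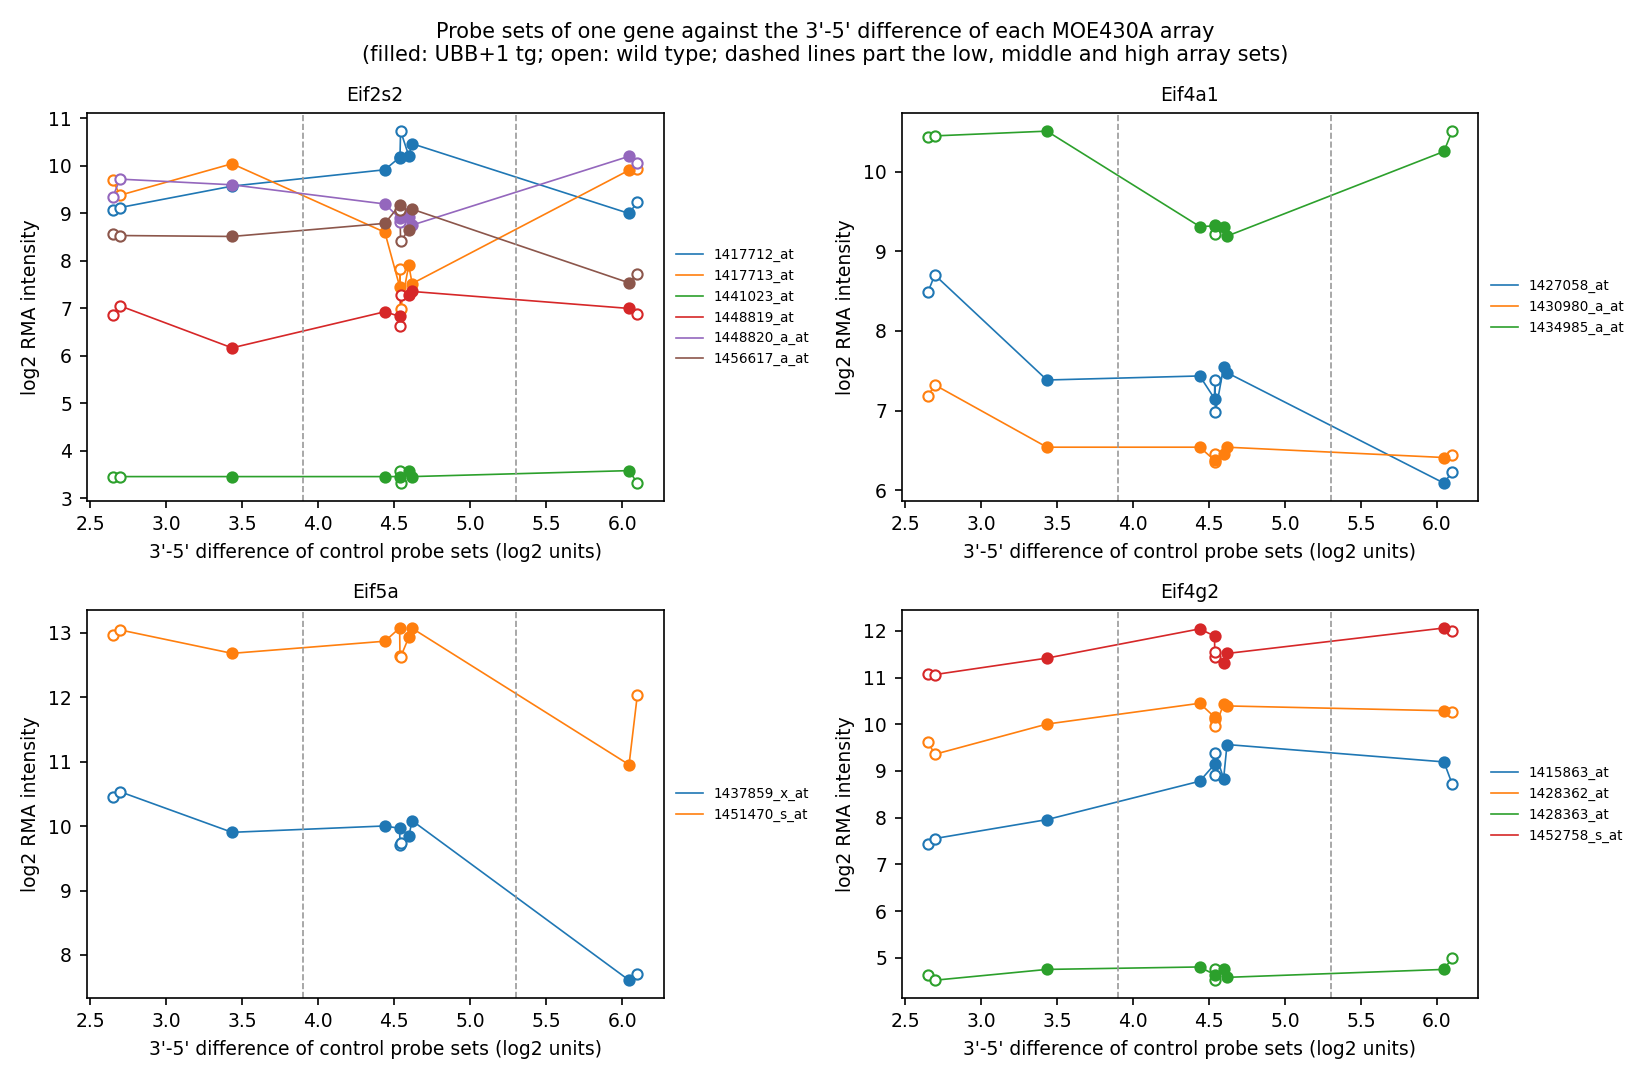
Log2 RMA intensity on MOE430A (y axis) of all probe sets of Eif2s2, Eif4a1, Eif5a and Eif4g2 against the 3'–5' difference of each array in log2 units (x axis), filled for UBB+1 tg and open for wild-type mice, with lines joining the arrays. The levels shift between the array sets by up to 2.64 on the log2 scale in set means (Eif5a 1437859_x_at), and the Eif2s2 probe sets 1417712_at and 1417713_at shift in opposite directions.

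The other steps of translation were set beside initiation. Elongation and termination factors had 30 probe sets of 17 genes on MOE430A, of which 2 were higher and 0 lower at an unadjusted p under 0.05 (all probe sets 1.91% and 1.57%), and 15 of 11 genes on MOE430B, of which 0 were either (all probe sets 3.05%). The first was a probe set of Etf1, the release factor that reads stop codons, with a log2 difference of 0.24 and a standard error of 0.09. The second was a probe set of Abce1, which recycles ribosomes, with 0.33 and 0.12. The other Etf1 probe sets differed by 0.11 to 0.34 on MOE430A and by −0.04 on MOE430B. The other Abce1 probe sets differed by 0.21 on MOE430A and by 0.03 on MOE430B. Proteins that bind or regulate the initiation factors, among them the mTOR pathway, had 42 probe sets of 25 genes on MOE430A, of which 1 was higher and 0 lower, against the same shares, and 18 of 9 genes on MOE430B, of which 0 were either. The 1 was a probe set of Ddx3x, an RNA helicase that works with eIF4F, at 0.72 with a standard error of 0.30. Its unadjusted p was 0.0353 (limma). The other Ddx3x probe sets differed by 0.129 and 0.435. A probe set of Rictor, a subunit of mTOR complex 2, had the next lowest p, with a log2 difference of 0.45 on MOE430B. The standard error was 0.22, and the difference was 0.17 in the low, 0.63 in the middle and −0.07 in the high set. The other Rictor probe sets differed by −0.08 to 0.01 on MOE430B and by 0.09 on MOE430A. No probe set of these lists passed the false discovery rate of 10%.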

How the data were processed

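The deposited values were the authors' RMA intensities (1 value per probe set after background correction and quantile normalization, done for each kind of array on its own), deposited as linear intensities on MOE430A and as log2 values on MOE430B. The RMA version is not given in the sources used here. MOE430A values were put on the log2 scale. Control probe sets (64 per array) and the probe set that detects the transgene's promoter were left out. UBB+1 tg was compared with wild type in limma 3.58.1 (R 4.3.3, lmFit and eBayes) over all probe sets of an array. Benjamini-Hochberg adjustment was made per array, at the 10% threshold of the study's methods. The study's main software works on single probes and cannot be run on summarised values. With it the study reported regulated genes at a false discovery rate of 10%. Its methods state that a limma t-test on RMA values, at the same threshold, bore those results out. Here no probe set of either array passed that threshold in the main fit. The fit was also run on simulated data with independent noise and no array sets, so that run does not bear on shifts between the sets. Probe sets at an unadjusted p under 0.05 were also tested over all splits of the mice (462 on MOE430A, 924 on MOE430B). These probe sets, and the brightest of each eIF2 subunit, kinase, 4E-BP, eIF4G and Eif4e gene, are given with their values or differences, the others by range, and of the further lists the 2 genes of lowest p. Genes were named from the platform annotation, and 6 probe sets that name an Eif gene with others were left out. Array sets are clusters of the arrays by complete linkage, with 1 minus the Pearson correlation as distance and the number of clusters set to 3. Precision is limited by the number of arrays. Members, lists and tests were chosen with earlier results of these data known.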

Additional observations from a re-analysis of the deposited data

Results flagged for a closer look

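Single mice stood apart from the rest of their genotype at 4 of the 34 groups of values examined, those of the named probe sets in each genotype. The rule flags about 1 in 20 groups of independent normal values. These groups come from the same mice, and the share over all probe sets was not computed, so the count is not read as an excess. At Eif1ad 1428542_at on MOE430B, tg271 read 8.57 on the log2 scale, and the other UBB+1 tg mice 7.52 to 7.85. The same mouse read 6.34 at Eif4ebp1 1417562_at on MOE430A, and the others 5.83 to 6.00. Its array lies in the low array set on both kinds of array. At Eif4ebp2 1417084_at, tg270, of the high array set, read 8.17, and the other UBB+1 tg mice 7.57 to 7.79. At Eif4b 1426378_at, wt321 read 7.68, and the other wild-type mice 8.01 to 8.12. The part of the array set in these values was not tested.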

How the results depend on the processing

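No Eif probe set passed the false discovery rate under any alternative run, and the lowest adjusted p of a member was 0.473 (limma, array weights, MOE430A). The number of members at an unadjusted p under 0.05 was 3 on MOE430A and 2 on MOE430B as reported. The share of all probe sets under 0.05 is given in parentheses, and it did not always move with that number. On MOE430A it was 8 with array weights (10.4%), 5 with a block for the array set (7.19%) and 6 within the middle set alone (5.17%), where 1 of the 3 remained. Averaging the probe sets of a gene left 1 on MOE430A (3.44% of genes). This was Eif6, which has 1 probe set on MOE430A, so nothing was averaged and its difference stayed at −0.41. For Eif6 that run is therefore no check. On MOE430B the number of members was 4 with the block (5.06%), 1 with a floor at the 25th percentile (2.90%), 1 with the trended and robust fit (2.90%) and 0 with averaged probe sets (3.19% of genes). Leaving out each mouse in turn gave 2 to 7 on MOE430A, with 7 without wt289 (5.73%) and 5 without tg271 (6.66%), wt291 (4.46%) or wt321 (4.77%). On MOE430B it gave 1 to 5, with 5 without wt289 (4.02%) and 1 without tg270 (3.60%), tg273 (2.95%), tg274 (2.88%), wt287 (2.55%) or wt290 (2.36%).

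Over the alternatives that kept single probe sets, the log2 difference ranged from −0.48 to −0.33 for Eif6, −0.37 to −0.19 for Eif4b, 0.30 to 0.52 for Eif4g2, 0.31 to 0.46 for Eif5a2 and −0.64 to −0.29 for Eif1ad. The unadjusted p was above 0.05 in 1 of 21 of them for Eif6 and 1 of 21 for Eif4b (both the middle set alone), in 2 of 21 for Eif4g2 (without wt287, without wt290), in 0 of 23 for Eif5a2 and in 12 of 23 for Eif1ad. With the probe sets of a gene averaged, the unadjusted limma p was above 0.05 for Eif4b (−0.13), Eif4g2 (0.31), Eif5a2 (0.31) and Eif1ad (−0.26). Eif6 has 1 probe set on each array, so averaging could not test it. A further 20 member probe sets came under 0.05 in at least 1 alternative, most often Eif2b3 1434524_at (8), Eif4e 1450909_at (6), Eif3k 1452674_a_at (4) and Eif4g3 1426833_at (3). Of 355 values of named probe sets, 23 turned sign, all without an unadjusted p under 0.05. The cause was not tested. No paired analysis was possible because the genotypes share no animal numbers.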
